A study of Mus musculus with 4 samples.

Results

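Acod1, Ass1, Upp1 and AA467197 are 4 of the 11820 genes measured in single monocytes and macrophages of the mouse colon, and were taken by name as genes of macrophage metabolism. They were chosen by the diet difference of their UMI counts in these same mice, being higher upon high-fat diet (HFD), so their differences between diets and between HFD cells of different maturity are given as descriptions, with no p-value. The cells came from male C57/Bl6N mice that were 6-7 weeks old and received either chow or a coconut-based diet with 60% fat for 1 week. Colonic lamina propria cells that were live, CD45+, Lin-, CD11b+ and CD24-, and that carried Ly6C or CD64, were sorted, and each mouse filled 1 well of a droplet-based 3' assay. There were 2 mice per diet, chow replicates 9 and 11 with 2906 cells and HFD replicates 1 and 3 with 2514 cells. The labels name no transgene and no other treatment, and each mouse is its own library, so mouse and library cannot be told apart.

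In colon, Ly6C-high blood monocytes enter the lamina propria, gain MHC class II, lose Ly6C and then acquire the C1q complement genes of resident macrophages. Activated macrophages rewire their mitochondria along this way. Acod1 encodes the enzyme that takes cis-aconitate out of the tricarboxylic acid cycle and turns it into itaconate. Ass1 encodes argininosuccinate synthase, which with Asl recycles citrulline to arginine, the substrate of the nitric oxide synthase Nos2. Upp1 encodes uridine phosphorylase, which splits uridine into uracil and ribose phosphate. AA467197, also called Nmes1, encodes a small mitochondrial protein related to Ndufa4, a subunit of cytochrome c oxidase, and its transcript also holds the hairpin of miR-147.

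In GRCm38 coordinates with GENCODE M21 gene models, Acod1 (ENSMUSG00000022126) lies on chr14:103046977-103056573, Ass1 (ENSMUSG00000076441) on chr2:31470207-31520672, Upp1 (ENSMUSG00000020407) on chr11:9118103-9136170 and AA467197 (ENSMUSG00000033213) on chr2:122636986-122641191, each on the plus strand. The Mir147 hairpin at chr2:122640803-122640881 falls within an exon of AA467197 on the same strand, and the values below count reads of the host transcript, not the microRNA. The 4 promoters are shown because the genes share a response to the diet without all sharing a maturation stage. They are taken from RefSeq on GRCm38.p6, on the plus strand, from 250 bases before to 50 bases after an annotated transcription start. Capitals mark ACGTG or its reverse complement CACGT, the core of hypoxia response elements, and TGANTCA, the AP-1 motif.

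Acod1: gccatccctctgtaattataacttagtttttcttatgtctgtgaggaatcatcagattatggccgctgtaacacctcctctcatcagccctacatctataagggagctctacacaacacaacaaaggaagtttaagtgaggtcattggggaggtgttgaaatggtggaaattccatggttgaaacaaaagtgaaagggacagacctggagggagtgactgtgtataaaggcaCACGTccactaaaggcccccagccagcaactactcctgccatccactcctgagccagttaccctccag
Ass1: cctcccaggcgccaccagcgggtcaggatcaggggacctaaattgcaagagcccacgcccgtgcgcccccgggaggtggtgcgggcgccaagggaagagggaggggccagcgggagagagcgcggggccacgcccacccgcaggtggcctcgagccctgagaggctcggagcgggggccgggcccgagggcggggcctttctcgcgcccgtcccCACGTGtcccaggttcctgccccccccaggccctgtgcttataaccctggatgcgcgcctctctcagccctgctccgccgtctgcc
Upp1: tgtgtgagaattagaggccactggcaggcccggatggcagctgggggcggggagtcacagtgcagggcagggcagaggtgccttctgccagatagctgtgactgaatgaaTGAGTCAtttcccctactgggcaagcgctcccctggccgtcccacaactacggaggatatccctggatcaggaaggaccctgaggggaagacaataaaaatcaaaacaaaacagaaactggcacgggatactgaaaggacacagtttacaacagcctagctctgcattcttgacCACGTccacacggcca
AA467197: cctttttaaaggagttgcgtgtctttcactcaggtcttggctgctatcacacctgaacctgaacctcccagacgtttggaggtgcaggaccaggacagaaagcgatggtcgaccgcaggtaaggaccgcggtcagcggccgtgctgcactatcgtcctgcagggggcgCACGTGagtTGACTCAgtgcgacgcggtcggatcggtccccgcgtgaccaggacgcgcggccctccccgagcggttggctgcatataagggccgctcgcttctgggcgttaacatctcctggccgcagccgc

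The windows are chr14:103046762-103047061 for Acod1, chr2:31470020-31470319 for Ass1, chr11:9117853-9118152 for Upp1 and chr2:122637637-122637936 for AA467197. For Upp1 the window at the GENCODE gene start was taken out of 3 listed windows, and for AA467197 the RefSeq start lies downstream of the GENCODE gene start. Each of the 4 printed promoters held at least 1 ACGTG on either strand, a match found in 19.6% of 32851 promoters of this length, and the other 2 windows of Upp1 held none. In Ass1 and AA467197 the matches on both strands overlap (CACGTG). The AP-1 motif TGANTCA was found in Upp1, 140 bases before the start (position -140), and in AA467197 (position -73), against 7.81% of all promoters. No match was found in these windows to the paired ISRE half-sites of interferon response factors, present in 3.44% of promoters, to the NF-kB motif, present in 0.411%, or to TTGCNNAA, the C/EBP motif, present in 10.8%. Both strands were searched for each motif, and a match is a run of letters, not a site shown to be bound.

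Cells were ordered by 3 sums of unique molecular identifiers (UMIs), each scaled by the total of the cell to CPM, the usual count per 1e+06 UMIs. These were Ly6c2, MHC class II (H2-Aa, H2-Ab1, H2-Eb1, Cd74) and C1q (C1qa, C1qb, C1qc), cut at 276, 19289 and 2332 CPM. Cells positive for Ly6c2 and low in MHC class II and C1q are called monocyte-range cells (A in the plots), and those positive for Ly6c2 and high in MHC class II are called intermediate-range cells (B). Cells negative for Ly6c2, high in MHC class II and low in C1q are called MHC II-high cells (C), and all cells above the C1q cut are called C1q-high cells (D). These are ranges of a level and not cell types, and 348, 310 and 201 cells lay within 1.5-fold of the Ly6c2, MHC class II and C1q cut, respectively. The summed level of 6 monocyte markers fell from 27787 and 26511 CPM in monocyte-range cells of the HFD mice to 2882 and 3776 CPM in C1q-high cells. The 7 resident macrophage markers ran the opposite way, from 543 and 722 CPM to 15476 and 14424 CPM. These lists hold Ly6c2 and C1qa, C1qb and C1qc, which set the cuts, so the cuts by themselves push the sums this way. Outside the cuts, pooled over the HFD mice, the monocyte markers Plac8 and Ccr2 went from 12963 and 1062 CPM to 2099 and 478 CPM. The resident markers Adgre1, Cx3cr1, Mertk and Cd163 went from 205, 58.2, 0.515 and 1.03 CPM to 250, 166, 17.1 and 3.43 CPM. Upon HFD, 23.9% ± 5.01 of cells were monocyte-range (SD, n = 2 mice), against 5.03% ± 2.59 on chow. Intermediate-range cells made up 12.9% ± 8.64 against 0.50% ± 0.56, and MHC II-high cells 13.4% ± 0.91 against 2.30% ± 1.13. C1q-high cells made up 44.9% ± 3.84 upon HFD and 88.4% ± 5.55 on chow. A level over all cells of a mouse therefore mixes the diet with the share of each range, and in bulk sums fewer cells of a type and less RNA per cell cannot be told apart.

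Total UMIs per mouse were 3832283 and 7947893 on chow and 3824228 and 5584175 upon HFD, with medians of 3926, 3747, 3804 and 3266 UMIs per cell. Across the mice 23 barcodes occurred in more than 1 library (46 cells), and Scrublet marked 38 cells (0.701%) as doublets. They were kept. For shares of positive cells, each cell was thinned to 1500 UMIs, which left out 60 and 200 chow cells and 124 and 201 HFD cells, in the order of the replicates. A cell with at least 1 UMI of a gene after thinning is called positive. The sort and the study's own annotation kept monocytes and macrophages, and no set of cells known to lack the 4 genes was at hand in numbers. The shares in chow cells are therefore given beside those upon HFD, and 16 cells rich in Igha and Jchain and 872 cells with a UMI of a dendritic cell marker were among the 5420. Over all genes tested between diets with edgeR at 1% FDR, 1.3% of 4478 were called in monocyte-range cells, 1.96% of 4847 in MHC II-high cells and 10.5% of 5066 in C1q-high cells. The 2 HFD values exceeded the 2 chow values for 29.3%, 31.4% and 42% of the genes tested in these ranges, so a lack of overlap is common with 2 mice per diet. Nothing is read from these shares for the 4 genes, which were chosen by that contrast.

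Among the 4 ranges, Acod1 was most abundant at the monocyte end upon HFD. Over all cells its level was 3.39 and 3.90 CPM in chow replicates 9 and 11 and 74.8 and 73.8 CPM in HFD replicates 1 and 3. In monocyte-range cells it was 0 and 39.7 CPM on chow and 164 and 172 CPM upon HFD. In intermediate-range cells the HFD mice had 68.5 and 93.9 CPM. The HFD values thus dropped with the gain of MHC class II, and the diets did not overlap in monocyte-range cells. In MHC II-high cells the level was 0 and 28.3 CPM on chow and 32.8 and 26.4 CPM upon HFD, so there the diets overlapped. In C1q-high cells it was 0.88 and 2.12 CPM on chow and 35.4 and 33.9 CPM upon HFD, again without overlap. Cells low in all 3 sums, outside the 4 ranges, had 108 and 289 CPM upon HFD. Of all Acod1 UMIs, monocyte-range cells held 58.7% and 38.3% in the HFD mice while holding 26.8% and 16.4% of all UMIs. After thinning, 15.9% and 15.5% of monocyte-range cells were Acod1-positive upon HFD, against 4.90% and 4.68% of MHC II-high cells and 3.49% and 4.40% of C1q-high cells. On chow the share was 0% and 3.23% in monocyte-range cells, where 0 of 57 cells allows a share of up to 5.26% if 3 counts are allowed for and 6.27% by the exact interval plotted. Within the HFD mice the share in MHC II-high cells was 10.9 ± 0.104 percentage points below that in monocyte-range cells (difference -10.9, SD, n = 2 mice).

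**Figure D1:**
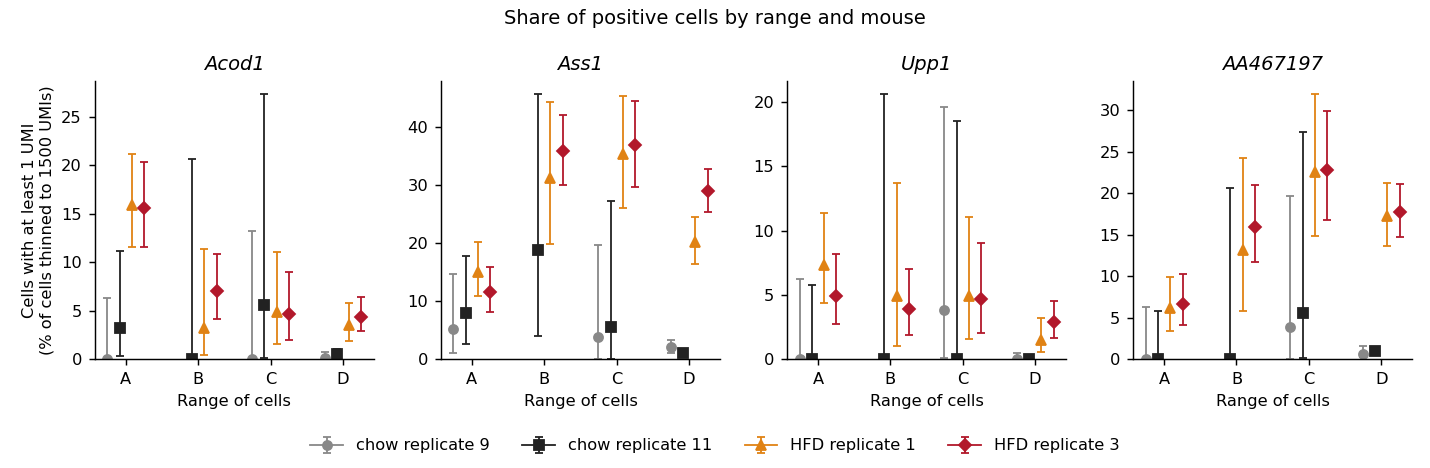
Percent of cells with at least 1 UMI of each gene after thinning to 1500 UMIs (y axis), by range (x axis), with 1 point per mouse and its exact 95% binomial interval. Among the 4 ranges plotted, which leave out cells low in all 3 sums, Acod1 is highest in HFD monocyte-range cells (15.9% and 15.5%), and AA467197 is highest in HFD MHC II-high cells (22.5% and 22.8%).

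Ass1, unlike Acod1, was higher in MHC II-high than in monocyte-range cells of both HFD mice. Its level over all cells was 14.9 and 11.4 CPM on chow and 244 and 302 CPM upon HFD. In monocyte-range cells it was 31.1 and 64.5 CPM on chow and 117 and 107 CPM upon HFD. In intermediate-range cells it was 350 and 393 CPM upon HFD and 191 CPM in chow replicate 11, the chow mouse with enough such cells (18 cells). So the mean HFD level was higher once MHC class II was gained (112 ± 7.41 against 372 ± 30.1 CPM, SD, n = 2 mice). MHC II-high cells had 24.0 and 84.8 CPM on chow and 392 and 445 CPM upon HFD. C1q-high cells had 13.7 and 7.96 CPM on chow and 272 and 306 CPM upon HFD. The diets did not overlap in any of the 3 ranges with both chow mice, and the pooled ratio of HFD to chow was 2.33 in monocyte-range, 8.15 in MHC II-high and 30.0 in C1q-high cells. After thinning, Ass1 was found in 15.1% and 11.7% of monocyte-range cells upon HFD, 31.1% and 35.8% of intermediate-range, 35.3% and 36.8% of MHC II-high and 20.2% and 28.9% of C1q-high cells. On chow 5.26% and 8.06% of monocyte-range and 2.08% and 1.13% of C1q-high cells were positive. In chow replicate 11, 3 of 16 intermediate-range cells were positive (18.8%), the highest chow share of Ass1 among ranges with at least 10 cells. Within C1q-high cells of the HFD mice, those that still held a Ly6c2 UMI were Ass1-positive more often (26.0% and 35.3%) than those without (18.3% and 24.2%). This was not particular to Ass1. The values were 4% and 5.95% against 3.32% and 3.24% for Acod1 and 3% and 4.37% against 0.997% and 1.77% for Upp1. For AA467197 they were 21% and 18.7% against 15.9% and 17.1%. The Ly6c2 UMI was read before thinning.

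Upp1 was the rarest of the 4 on chow, with 1 and 3 UMIs in the whole libraries of chow replicates 9 and 11, and 183 and 203 UMIs in HFD replicates 1 and 3. These are 0.261 and 0.377 CPM against 47.9 and 36.4 CPM. Monocyte-range cells had 75.2 and 54.5 CPM upon HFD, intermediate-range cells 83.8 and 54.0 CPM, MHC II-high cells 59.8 and 46.2 CPM and C1q-high cells 14.0 and 18.9 CPM. The means of the first 3 ranges were 64.9 ± 14.7, 68.9 ± 21.1 and 53.0 ± 9.60 CPM (SD, n = 2 mice), and each pair differed by less than the sum of its SDs. Within each HFD mouse, MHC II-high cells were the lowest of these 3. C1q-high cells were lower in both HFD mice than each of the other 3, at 16.4 ± 3.50 CPM. On chow, monocyte-range cells had 0 and 4.96 CPM, MHC II-high cells 12.0 and 0 CPM and C1q-high cells 0 and 0.27 CPM, each from at most 2 UMIs. The positive share upon HFD was 7.35% and 4.95% in monocyte-range, 4.92% and 3.89% in intermediate-range, 4.90% and 4.68% in MHC II-high and 1.5% and 2.88% in C1q-high cells.

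AA467197 was low in HFD monocyte-range cells and high in the later ranges. Over all cells it was at 6.78 and 6.79 CPM on chow and 363 and 297 CPM upon HFD. In monocyte-range cells it was at 5.19 and 0 CPM on chow and 46.9 and 71.9 CPM upon HFD. In intermediate-range cells of the HFD mice it was at 442 and 248 CPM. The HFD mice thus differed by more in this range than in the monocyte range. MHC II-high cells had 12.0 and 70.7 CPM on chow and 556 and 681 CPM upon HFD. C1q-high cells had 7.00 and 6.50 CPM on chow and 497 and 285 CPM upon HFD. Diets did not overlap in any of these 3 ranges, and the pooled HFD to chow ratio was 16.2 in MHC II-high and 55.4 in C1q-high cells. MHC II-high cells were above C1q-high cells in both HFD mice, yet the means of 618 ± 88.2 and 391 ± 150 CPM differed by less than the sum of their SDs. The positive share upon HFD was 6.12% and 6.71% in monocyte-range, 13.1% and 16% in intermediate-range, 22.5% and 22.8% in MHC II-high and 17.2% and 17.8% in C1q-high cells. In chow MHC II-high cells it was 3.85% and 5.56%, from 26 and 18 cells, and in chow C1q-high cells 0.69% and 0.95%.

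**Figure D2:**
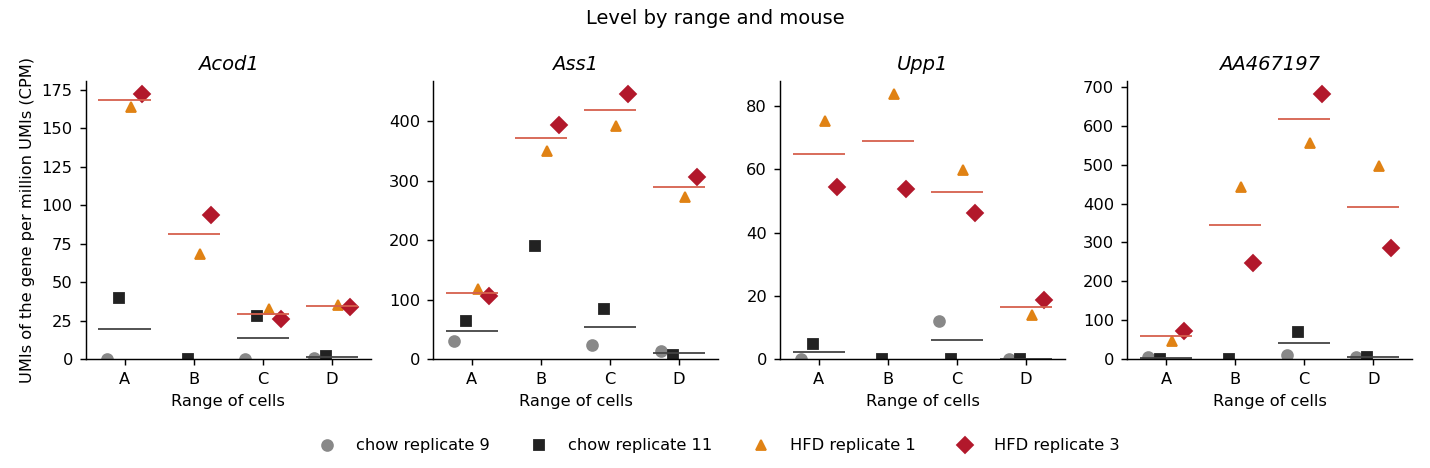
Level of each gene in CPM (y axis) in the summed UMIs of each range (x axis), with 1 point per mouse. In the C1q-high range the HFD mice lie above the chow mice for each of the 4 genes.

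The 4 genes also differed in how much RNA a positive cell held. Before thinning, positive cells of HFD replicates 1 and 3 had on average 6.56 and 4.53 UMIs of AA467197, and single cells held up to 75 and 88. The corresponding means were 2.84 and 2.64 for Ass1, 2.51 and 2.44 for Acod1 and 2.47 and 1.90 for Upp1. AA467197 was present at 5 or more UMIs in 69 and 78 cells, so a small number of cells carried much of its level. Unthinned, 11.4% of HFD cells held Acod1, 37.7% Ass1, 7.29% Upp1 and 22.8% AA467197 (mean of 2 mice). In HFD replicate 1, monocyte-range cells held 168 UMIs of Acod1 and 48 of AA467197, and MHC II-high cells held 17 of Acod1 and 288 of AA467197. In HFD replicate 3 the counts were 158 and 66 in monocyte-range and 20 and 515 in MHC II-high cells. The share of free RNA in these counts was not estimated.

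Weighting the HFD ranges by their mean share of chow UMIs gives the level that would follow with the chow division of UMIs among ranges. The weights are shares of UMIs, not of cells. Acod1 then stood at 42.0 and 44.9 CPM, Ass1 at 264 and 298 CPM, Upp1 at 20.7 and 22.2 CPM and AA467197 at 471 and 282 CPM. Each of these 8 values was above both chow mice. For Acod1 and Upp1 they were below the measured HFD levels in both mice. For Ass1 and AA467197 they were above it in replicate 1 and below it in replicate 3 (298 against 302 CPM and 282 against 297 CPM).

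Shares of positive cells were also read without the cuts, along 5 bins of equal width in MHC class II level. These bins take no account of C1q, so they do not separate MHC II-high from C1q-high cells. From the lowest to the highest bin, Acod1-positive cells made up 13.5%, 16.4%, 11.4%, 4.39% and 3.80% in HFD replicate 1. In HFD replicate 3 they made up 18.2%, 11.2%, 14.8%, 6.27% and 4.06%. Both mice had their lowest values in the upper 2 bins. Ass1-positive cells went from 12.5% to 23.8% in replicate 1, with 28.1% in the fourth bin, and from 8.59% to 32.2% in replicate 3, with 33.7% in the fourth bin. AA467197-positive cells went from 5.77% to 19.0% and from 6.06% to 18.1%, and Upp1-positive cells from 7.21% to 2.14% and from 4.04% to 2.03%. Acod1 and Upp1 thus ended low and Ass1 and AA467197 ended high in both mice. Along C1q, Ass1 and AA467197 did not end at their peak. AA467197 was most frequent in the fourth bin, which lies above the C1q cut, at 29.9% and 22.4%. It stood at 14.9% and 18.1% in the third bin and at 12.5% and 15.1% in the fifth. Ass1 was at 30.8% and 34.6% in the fourth bin and at 15.7% and 25.9% in the fifth, with 31.9% in the third bin of replicate 1. Acod1 was at 13.5% and 12.9% in the lowest C1q bin and 2.79% and 3.70% in the highest.

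**Figure D3:**
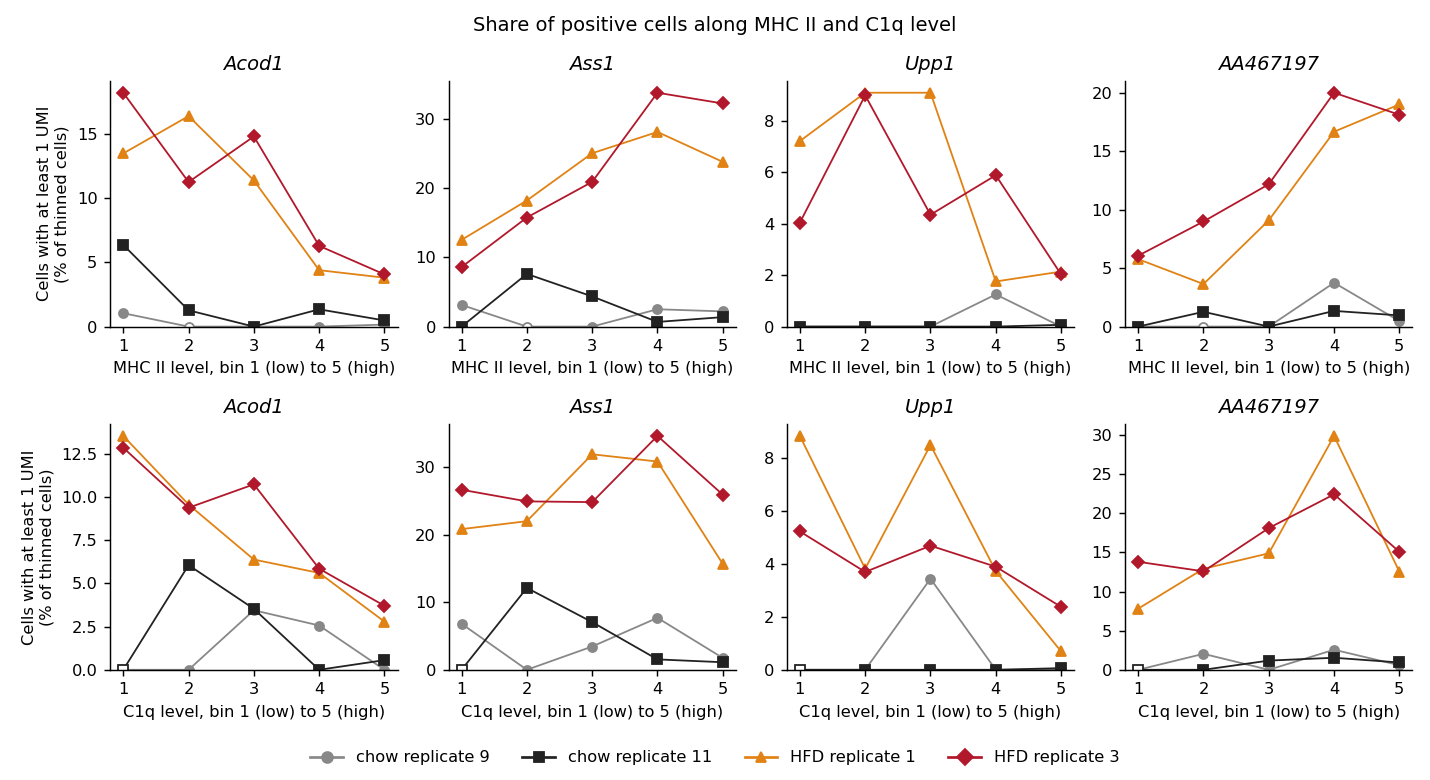
Percent of positive cells after thinning (y axis) in 5 bins of MHC class II or C1q level (x axis, log2 of CPM + 100), with 1 line per mouse. Upon HFD, Acod1 goes down and Ass1 and AA467197 go up along MHC class II, and AA467197 has its highest share in the fourth C1q bin (29.9% and 22.4%).

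A fit of the HFD sums with mouse as a block gave a log2 fold change of MHC II-high over monocyte-range cells of 3.39 ± 0.22 for AA467197 (SE). It was 1.87 ± 0.16 for Ass1, -0.32 ± 0.29 for Upp1 and -2.55 ± 0.27 for Acod1. From MHC II-high to C1q-high cells the changes were -0.58 ± 0.17 for AA467197, -0.39 ± 0.13 for Ass1, -1.48 ± 0.32 for Upp1 and 0.39 ± 0.30 for Acod1. With all cuts doubled, Acod1 had the opposite sign (-0.57), AA467197 was at -1.09 and Ass1 at -0.68, and the Acod1 value of MHC II-high over monocyte-range cells was -1.74. Without cells holding a dendritic marker UMI, the Ass1 value from MHC II-high to C1q-high cells was -0.72. On chow, none of the 4 passed the filter on low counts when ranges were compared, and genes chosen for a higher level upon HFD can be low on chow by that choice. Without that filter none was called, with adjusted p-values (edgeR) of 0.64 to 1 for MHC II-high against monocyte-range cells and 0.54 to 0.94 for C1q-high against MHC II-high cells. The 1 unadjusted p-value under 0.05 of these 8 was that of AA467197 in MHC II-high against monocyte-range cells (0.048, from 6 and 1 UMIs). In the same unfiltered fits 1.12% and 2.47% of 11766 genes were called. For these 2 comparisons no difference between ranges was detectable for the 4 genes at this depth.

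For the diet contrast within a range, the fitted log2 fold changes of HFD over chow in monocyte-range cells were 4.45 ± 0.86 for Upp1, 4.31 ± 0.90 for AA467197, 2.91 ± 0.52 for Acod1 and 1.09 ± 0.39 for Ass1. In C1q-high cells they were 5.72 ± 0.33 for AA467197 and 4.66 ± 0.25 for Ass1, and Acod1 and Upp1 were found in under 5% of cells and were not fitted. In MHC II-high cells they were 3.93 ± 0.44 for AA467197, 2.96 ± 0.42 for Ass1, 2.91 ± 1.12 for Upp1 and 1.10 ± 1.10 for Acod1, the last on 2 chow UMIs and the Upp1 value on 1. The Acod1 value was -0.0064 without chow replicate 9 and 6.74 without chow replicate 11. In the same order of mice left out, Upp1 in MHC II-high cells was at 7.56 and 2.05. In monocyte-range cells Upp1 and AA467197 had 1 chow UMI each, and Acod1 had 8, all from replicate 11. Without chow replicates 9 and 11 in turn, the monocyte-range values were 3.55 and 8.53 for Upp1, 8.39 and 3.37 for AA467197, 1.95 and 9.89 for Acod1 and 0.67 and 1.74 for Ass1. The MHC II-high values were 3.07 and 5.61 for AA467197 and 2.25 and 4.06 for Ass1. Values against a chow mouse with 0 UMIs depend on the prior count of the fit and are no bounds. The diet difference of Ass1 in monocyte-range minus C1q-high cells was -3.46 ± 0.54 and that of AA467197 was -1.17 ± 2.24, given as descriptions. The Ass1 value was -4.33 without chow replicate 9 and -2.46 without chow replicate 11. Without chow replicate 9, which held the 1 chow UMI of AA467197 in monocyte-range cells, the AA467197 value was 4.29.

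Co-expression was read in thinned HFD cells, over all ranges, as the number of cells positive for both genes beside the product of their shares. Ass1 and AA467197 were found together in 68 cells of HFD replicate 1, where the product gives 24.9, and in 88 cells of replicate 3, where it gives 56.6 (odds ratios 7.68 and 2.26, and 4.31 and 3.62 in unthinned cells). Within C1q-high cells alone the counts were 38 against 13.9 and 45 against 30.4. This pair was above the product in 7 of 8 sets of 1 mouse and 1 range. Upp1 and AA467197 shared 12 cells against 4.86 and 14 against 7.80 (odds ratios 3.49 and 2.18, and 2.20 and 1.95 unthinned). Ass1 and Upp1 shared 14 against 7.44 and 16 against 13.5, and both pairs were above the product in 7 of 8 sets. Acod1 and Upp1 shared 8 cells against 2.62 and 6 against 3.97, and Acod1 and AA467197 14 against 8.75 and 21 against 16.7. These 2 pairs were above the product in 5 of 8 sets each, and Acod1 with Ass1 in 4 of 8. Acod1 and Ass1 went different ways in the thinned cells of the 2 mice. They shared 19 cells against 13.4 in replicate 1 (odds ratio 1.67) and 22 against 28.8 in replicate 3 (odds ratio 0.68). In unthinned cells both mice were above the product for this pair (odds ratios 2.05 and 1.12). Thinned cells are alike in depth but not in RNA content before capture, so the counts describe these 2 libraries.

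**Figure D4:**
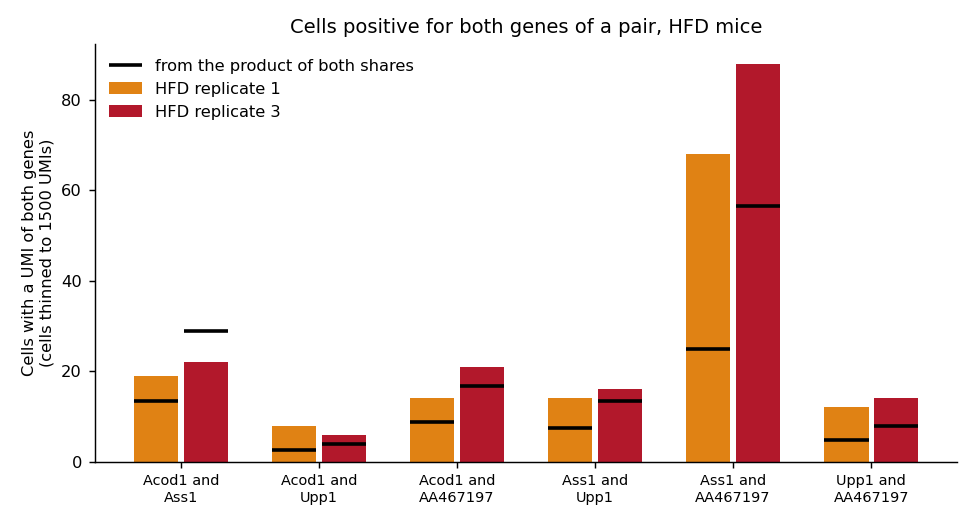
Thinned HFD cells positive for both genes of a pair, observed (bars) and from the product of the 2 shares (black lines; y axis, number of cells), for each pair (x axis) and mouse. Ass1 with AA467197 has the most double-positive cells in both mice, 68 and 88.

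At least 1 of the 4 genes was found in 33.1% and 42.6% of thinned HFD cells and in 3.20% and 3.27% of chow cells. In HFD replicates 1 and 3, 11.4% and 10.8% of cells held 2 or more, and 1 cell, of replicate 1, held all 4. On chow 1 and 2 cells held 2 members. Over the 8 sums of the HFD mice and ranges, Pearson's r of log2 levels was 0.92 for Ass1 with AA467197, -0.83 for Acod1 with Ass1, -0.92 for Acod1 with AA467197, 0.52 for Acod1 with Upp1, -0.26 for Ass1 with Upp1 and -0.39 for Upp1 with AA467197. Over all 15 sums of both diets, r was positive for each pair, at 0.84, 0.59, 0.55, 0.81, 0.71 and 0.73 in the same order. Those 15 sums also hold the diet difference by which the genes were chosen. The points share libraries and a C1q and MHC class II axis. 

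Genes whose level was most like each member over the 15 sums of mouse and range, among 7045 genes, were ranked by Pearson's r of log2(CPM + 10). For Acod1 they were Gm12216 (r = 0.93), Cers6 (0.92) and Magohb (0.91). For Ass1 they were Ifi30 (0.96), Ly6i (0.95) and the cytochrome c oxidase subunit Cox6a1 (0.95). For Upp1 they were the interferon-inducible GTPase Gbp5 (0.93), Smdt1 (0.93) and Psma4 (0.91). For AA467197 they were the cytochrome c oxidase subunit Cox5a (0.97), Mif (0.96) and Rps27l (0.94). The sums hold both diets, and the members were chosen for a higher level upon HFD, so a high r can restate that difference. Each gene named here also had a higher mean level in the HFD than in the chow sums.

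The pathways around the members were described by lists of genes with edgeR's quasi-likelihood test at 1% FDR, adjusted over all genes tested in a range. By direction, the share of all genes called between diets was 0.871% higher and 0.424% lower in monocyte-range, 0.949% and 1.01% in MHC II-high, and 5.35% and 5.13% in C1q-high cells. Median log2 fold changes of all genes were -0.02, 0.09 and -0.02.

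Of a list of cytochrome c oxidase subunits, their assembly factors and Ndufa4, a relative of AA467197, 10 of 16 genes were higher upon HFD in C1q-high cells and none lower, among them the copper chaperone Cox17, with a list median log2 fold change of 0.92. C1q-high cells of the 2 diets also differed in maturity markers. Monocyte markers summed to 354 and 542 CPM on chow and 2882 and 3776 CPM upon HFD in this range, and resident macrophage markers to 20388 and 21319 CPM and 15476 and 14424 CPM. The part of this shift in the list calls of this range was not tested. Cox7b rose from 213 and 191 CPM on chow to 454 and 602 CPM upon HFD (log2 fold change 1.24 ± 0.16, edgeR adjusted p = 0.0016). Cox5a rose from 479 and 454 CPM to 1004 and 1162 CPM (1.07 ± 0.13, adjusted p = 0.0012). Ndufa4, the relative of AA467197, rose from 397 and 368 CPM to 640 and 754 CPM (0.72 ± 0.13, adjusted p = 0.0071). In MHC II-high cells 2 of 17 were higher, Cox7b (1.15 ± 0.26, adjusted p = 0.0046) and Cox7a2 (1.08 ± 0.26, adjusted p = 0.0075), with a list median of 0.60. DESeq2 called neither. In monocyte-range cells 0 of 16 were called by edgeR and by DESeq2, with a median of 0.25 and 3 higher and 1 lower at an unadjusted p under 0.05 (edgeR).

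**Figure D5:**
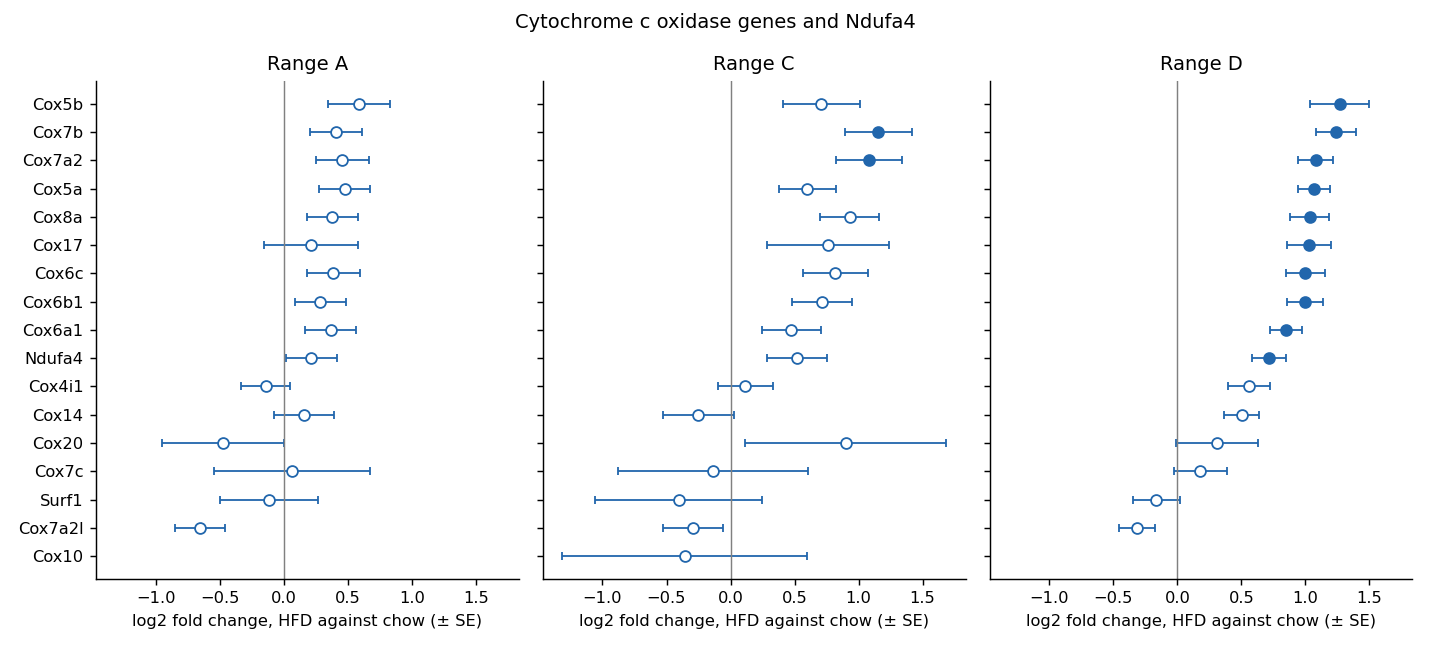
Log2 fold change of HFD over chow (x axis) of each cytochrome c oxidase gene (y axis) in 3 ranges, with bars of 1 SE and filled points for adjusted p under 0.01. In C1q-high cells 10 of 16 are filled, all to the right of 0.

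Around itaconate, 3 of 22 genes of the tricarboxylic acid cycle were higher upon HFD in C1q-high cells and none lower (list median 0.35). They were the malate dehydrogenase Mdh2 (1.04 ± 0.16, edgeR adjusted p = 0.0030), the succinate dehydrogenase subunit Sdhb (0.83 ± 0.13, adjusted p = 0.0040) and Suclg1 (0.86 ± 0.14, adjusted p = 0.0043). In MHC II-high cells Mdh2 was the 1 gene of 22 called, from 348 and 311 CPM to 1115 and 889 CPM. In monocyte-range cells, the highest of the 4 ranges for Acod1 upon HFD, 0 of 20 were called by edgeR and by DESeq2, with 1 higher and 1 lower at an unadjusted p under 0.05. Of Nrf2 targets, which itaconate can induce through Keap1, C1q-high cells had 3 of 10 higher and 1 lower. The cystine transporter Slc7a11 rose from 128 and 96.8 CPM to 496 and 422 CPM, with Txn1 and the glutathione reductase Gsr higher too, and the heme oxygenase Hmox1 fell from 129 and 166 CPM to 84.8 and 78.5 CPM. Prdx1 was the 1 of 9 called in MHC II-high cells, at 1.46 ± 0.22 (adjusted p = 6.61e-06), and 0 of 9 were called in monocyte-range cells by edgeR and by DESeq2 (2 at an unadjusted p under 0.05).

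Around Ass1, no gene of arginine and nitric oxide metabolism was called higher in the 3 ranges tested. At an unadjusted p under 0.05 (edgeR), 1, 2 and 1 genes were higher in monocyte-range, MHC II-high and C1q-high cells. Asl, the next enzyme after Ass1, was not called, with adjusted p-values of 0.93, 0.77 and 0.82 in monocyte-range, MHC II-high and C1q-high cells. Sat1, which acetylates polyamines, was the gene called, lower upon HFD in MHC II-high cells (-1.17 ± 0.20, adjusted p = 0.00011) and in C1q-high cells (-0.73 ± 0.13, adjusted p = 0.0070). The call in C1q-high cells was lost with any 1 of the 4 mice left out and with scaling by library size alone. Sat1 was 1 of 13 genes tested in each, against 0 of 14 in monocyte-range cells by edgeR and by DESeq2. Nos2, named after its values were seen, had 0 UMIs in both chow mice and 21 and 14 UMIs in the HFD mice and was too rare to test. Its UMIs came from 9 and 8 cells, of which 7 and 6 also held Ass1. Around Upp1, the nucleotide hydrolase Samhd1 was higher upon HFD in monocyte-range cells, as 1 of 13 (1.25 ± 0.20, adjusted p = 0.00045). In C1q-high cells it was higher along with Nt5c, as 2 of 12, and rose from 106 and 120 CPM to 426 and 489 CPM. In MHC II-high cells the nucleoside transporter Slc29a1 was lower as 1 of 12 (-2.22 ± 0.43, adjusted p = 0.00056).

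Of the inflammatory activation genes, Cd40 and Il1rn were higher upon HFD in both monocyte-range and C1q-high cells. In monocyte-range cells 3 of 12 were higher and none lower, the interferon regulatory factor Irf1 from 93.4 and 104 CPM to 538 and 592 CPM, the costimulatory receptor Cd40 from 20.8 and 34.7 CPM to 158 and 198 CPM, and the interleukin-1 receptor antagonist Il1rn, which DESeq2 did not call in this range. In C1q-high cells 4 of 11 were higher, among them Cd40 and Il1rn, and 2 were lower, among them Tnf, from 271 and 240 CPM to 154 and 113 CPM. Marcksl1 was the 1 of 12 called in MHC II-high cells by edgeR, and was lower, and DESeq2 did not call it.

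The list calls differed in how far they rested on 1 mouse. In C1q-high cells 26 list genes were called, 21 of them again without chow replicate 9, 14 without chow replicate 11, 2 without HFD replicate 1 (Il1rn and Samhd1) and 0 without HFD replicate 3. All genes called over the whole table fell there from 531 to 100 and 15 without HFD replicates 1 and 3, and each list gene kept its direction where tested. In monocyte-range cells Irf1 and Cd40 were called without any 1 of the 4 mice, while Il1rn was not without chow replicate 9, HFD replicate 1 or HFD replicate 3. Samhd1 was not called there without HFD replicate 3. In MHC II-high cells Prdx1 alone of the 7 list genes was called without any 1 mouse, and without cells holding a dendritic marker UMI 2 of the 7 were called, Prdx1 and Sat1. With all cuts halved, 1 of 4 list genes was called again in monocyte-range cells (Irf1), 1 of 7 in MHC II-high cells (Prdx1) and 26 of 26 in C1q-high cells.

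Markers of other cell types were read beside these results. Dendritic cell markers, mostly Cd209a and Ccr7, summed to 855 and 674 CPM in MHC II-high cells upon HFD and 660 and 396 CPM on chow, against 73 and 89 CPM in HFD monocyte-range cells. Ass1-positive HFD cells held such a UMI in 33.7% and 28.5% of cases, and Ass1-negative cells in 19.6% and 17.5%. For AA467197 the values were 34.0% and 29.2% against 21.8% and 19.8%. Epithelial markers were also in more Ass1-positive than Ass1-negative HFD cells (7.29% and 7.36% against 2.83% and 3.52%). For AA467197 these values were 6.60% and 7.38% against 3.71% and 4.40%. Cells were split by unthinned counts, so depth was not evened out in these shares. In HFD cells without any dendritic marker UMI, Ass1 stood at 199 and 275 CPM and AA467197 at 234 and 253 CPM, still above both chow mice. Of 7 neutrophil markers 3 were measured, and they summed to 160 and 74 CPM in HFD monocyte-range cells against 57 and 64 CPM on chow. S100a8 was in 33 cells of HFD replicate 1, 12 of them with Acod1, and in 10 cells of replicate 3, none of them with Acod1. Plasma cell RNA was high in chow monocyte-range cells, at 44053 and 29019 CPM against 112 and 77 CPM upon HFD, and came mostly from 2 cells and 1 cell rich in Igha and Jchain. Without such cells 77 genes were called between diets in monocyte-range cells, against 58 with them. In C1q-high cells plasma cell markers summed to 2637 and 3080 CPM on chow and 136 and 103 CPM upon HFD, and dendritic cell markers to 50.5 and 53.0 CPM and 184 and 167 CPM. There 532 genes were called without the cells rich in Igha and Jchain, against 531 with them, and 25 of the 26 list genes were tested and called again without cells holding a dendritic marker UMI. The part of these cells in the results was not tested otherwise.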

How the data were processed

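Single cells of 4 mice were measured with a 10x 3' v2 assay. According to the methods and the submitters' notes, the authors pseudoaligned reads with kallisto 0.46.0 and counted UMIs with bustools 0.39.2 (mm10, Ensembl 97 transcripts), dropped cells of low library size, few genes or extreme mitochondrial share, dropped rare genes and removed cells not annotated as monocytes or macrophages. The deposited matrix holds raw UMI counts per gene and cell, 11820 genes and 5420 cells, of which 11819 genes matched GENCODE M21. Mouse and diet were read from the cell names. Total UMIs per mouse were 3824228 to 7947893. Filtering before deposit means that cells of low RNA content, and genes seen in few cells, cannot be assessed.

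The 4 genes, the pathway lists and the marker lists were chosen with earlier results of these data known. Cuts were Otsu thresholds on log2(CPM + 100), mice weighted equally. UMIs were summed per mouse and range (at least 10 cells) and tested in edgeR 4.0.16 (R 4.3.3) with TMM and the quasi-likelihood test, adjusted by Benjamini-Hochberg at 1% FDR, keeping genes above 1 CPM in 2 or more sums that were seen in 5% or more of the cells. Ranges within chow, and the difference of diet effects between ranges, had mouse as a block. The SE of an edgeR log2 fold change is its absolute value divided by the square root of the F statistic of its test. It was not estimated on its own. The intermediate range had 1 cell in chow replicate 9, so it has no diet test, and MHC II-high cells were compared directly with monocyte-range cells. Named genes were the members, the genes of the cuts, Ndufa4, up to 6 genes per list with the largest absolute log2 fold change among those called in any range, the 3 genes most like each member, and markers that moved with a result. Socs3 was also named where the diet effects of ranges differed. With 2 mice per diet an exact permutation test cannot go below p = 0.33, so single values carry no test. Shares used cells thinned to 1500 UMIs, and their exact binomial 95% intervals cover counting error only. Scrublet was run through scanpy 1.11.5 (Python 3.11.15). The edgeR steps were tested on simulated data. Alternatives were DESeq2 1.42.0, a likelihood ratio test, other scalings, filters, cuts and thinning depths, removal of cells with markers of other types, and leaving out each mouse. Some items are not reported here.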

Additional observations from a re-analysis of the deposited data

Results flagged for a closer look

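The effect of the diet differed between monocyte-range and C1q-high cells for 2 genes of the inflammatory list, by the interaction term of the edgeR fit over both ranges of all 4 mice (84 list genes tested, 1.24% of all 5008 genes called). For Irf1, an interferon regulatory factor, the log2 effect in monocyte-range cells was 2.12 ± 0.27 (SE) above that in C1q-high cells (adjusted p = 0.00023). It was called in monocyte-range cells at 2.38, and in C1q-high cells it was 0.35 ± 0.21 (adjusted p = 0.27). Without chow replicate 9 the difference was 2.25 with an adjusted p of 0.011.

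For Socs3, an inhibitor of cytokine signalling, the difference was 1.78 ± 0.18 (adjusted p = 1.78e-05). Its log2 fold change was 0.82 in monocyte-range cells (adjusted p = 0.028) and -0.87 in C1q-high cells (adjusted p = 0.0030). With cells rich in Igha and Jchain removed, 88 genes in place of 62 were called, and 4 list genes, Irf1, Socs3, Slc7a11 (-1.38, adjusted p = 0.0052) and Txn1 (-0.88, adjusted p = 0.0066). The part of markers of other cell types was not tested otherwise.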

How the results depend on the processing

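No paired analysis was possible because chow and HFD mice share no replicate number. Of the diet contrast, monocyte-range cells had 58 genes called, and 111 with a likelihood ratio test, 117 without a filter, 8 with cuts halved, 25 with cuts doubled, 36 without dendritic marker cells and 34 to 119 leaving out 1 mouse. Of their list genes, 7 were called with the likelihood ratio test, 1 with cuts halved, 2 with cuts doubled and 2 to 6 leaving out 1 mouse. MHC II-high cells had 95 called, and 173 (likelihood ratio), 48 (DESeq2), 185 (no filter), 31 (halved), 35 (no dendritic marker cells) and 41 to 161 (1 mouse left out); their list genes 11, 4, 19, 1, 3 and 2 to 10. C1q-high cells had 531, and 927 (likelihood ratio), 910 (no filter) and 15 to 516 (1 mouse left out), and 0 to 23 list genes. Within chow, the mouse block was in the fit; with no replicate block, 38 genes in place of 132 were called between MHC II-high and monocyte-range cells (64 with cuts halved) and 118 in place of 245 between C1q-high and MHC II-high cells (139 with cuts halved). The difference of diet effects had 62 called, 33 with no replicate block, 88 without cells rich in Igha and Jchain and 23 to 78 leaving out 1 mouse. Scaling by library size alone moved the median of all genes to 0.11, 0.12 and 0.13 in the 3 ranges, from -0.02, 0.09 and -0.02. It gave 53 higher and 16 lower genes in monocyte-range cells, 56 and 48 in MHC II-high cells and 507 and 246 in C1q-high cells. The main counts were 39 and 19, 46 and 49, and 271 and 260.

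The share in MHC II-high minus monocyte-range HFD cells kept its sign for Acod1, Ass1 and AA467197. For Acod1 it was -10.6 with Ly6c2 called from 1 UMI, -10.6 with cuts halved, -9.13 doubled, -10.4 without dendritic marker cells, -8.22 and -12.2 at 1000 and 2500 UMIs, -13.8 unthinned and -11.0 to -10.9 with 1 mouse. For Ass1 it was 19.1 (1 UMI), 17.2 and 28.4 (1000 and 2500 UMIs), 28.4 (unthinned) and 20.2 to 25.2 (1 mouse). For AA467197 it was 17.3 (1 UMI), 21.9 (doubled), 18.4 (halved), 13.7 (no dendritic marker cells), 15.4 and 21 (1000 and 2500 UMIs), 20.9 (unthinned) and 16.1 to 16.4 (1 mouse). For Upp1 it was -2.44 to -0.269 (1 mouse). Among the printed values, the sign changed for AA467197 in the difference of diet effects without chow replicate 9 (4.29), for the diet log2 fold change of Acod1 in MHC II-high cells without chow replicate 9 (-0.0064, and 6.74 without chow replicate 11), for Acod1 in C1q-high against MHC II-high HFD cells with cuts doubled (-0.57) and without dendritic marker cells (-0.050), and for Acod1 with Ass1 in replicate 3 unthinned (odds ratio 1.12). The causes were not tested. Depth limits the chow values, since Upp1 had 4 UMIs on chow in all.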

Other observations

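Cells low in Ly6c2, MHC class II and C1q fall outside the 4 ranges and numbered 49 and 41 on chow and 52 and 68 upon HFD. Their Acod1 level was 80.1 and 53.0 CPM on chow and 108 and 289 CPM upon HFD. In the chow mice this was the highest Acod1 level of any set of cells. Upon HFD it was below that of monocyte-range cells in replicate 1 (164 CPM there) and above it in replicate 3 (172 CPM there). The chow values rest on 10 and 5 UMIs, 6 of the 10 in 1 cell. Upp1 stood at 171 and 83.4 CPM in these cells upon HFD, from 27 and 15 UMIs, of which 19 and 11 were in a single cell of each mouse. Plasma and B cell markers summed to 60466 and 37390 CPM in these HFD cells and 232 and 5688 CPM on chow, and epithelial markers to 222 and 4328 CPM and 0 and 402 CPM. Their part in the Acod1 and Upp1 levels was not tested. Their median depth was 2193 and 2063 UMIs per cell in the HFD mice, below that of each of the 4 ranges.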
